A study of Mus musculus with 3 samples.

Results

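The 10 genes described here are the rows with the symbols B2m, H2-K1, H2-D1, H2-Q7, H2-T23, Tap1, Tap2, Psmb8, Psmb9 and Nlrc5, taken by name from the 25906 genes listed in the count tables. They cover the light chain, classical and nonclassical heavy chains of MHC class I, both subunits of the peptide transporter, catalytic subunits of the immunoproteasome and the transactivator of the class I genes. All 10 were detected in all 6 groups of cells and all 10 passed the minimum of 50 CPM (UMIs scaled to 1000000 UMIs per group) in every comparison.

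Live NK1.1+NKp46+ natural killer (NK) cells had been sorted from lung and blood of female wild-type mice at 9 weeks of age. The mice were naive, or had received 100000 PyMT mammary tumor cells intravenously 6 h or 14 days before. Each condition was 1 droplet library that held lung and blood cells, which were told apart by hashtag antibodies, B0304 read as lung and B0306 as blood. That reading rests on the order in which the tissues and tags are named and was not tested. Of the 10 immediate early and stress genes given with the tissue comparison, 9 were higher in cells with B0304 in each library. Those genes were picked after their values were seen, so they are no separate support for the reading. Cells of several mice shared a library and could not be assigned to a mouse, so each of the 6 groups is 1 sample and no test between groups was possible. Intervals (95%) cover counting error only, and differences between mice or between libraries cannot be told apart from differences between conditions.

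After the filters the groups held 2069 to 4680 cells, 16936897 to 35922737 UMIs in sum and a median of 5909.5 to 7524 UMIs per cell, with the naive library the shallowest. The NK cell markers Ncr1 (665 to 1533 CPM over the groups) and Klrb1c (1052 to 1319 CPM), which encode the sorted proteins NKp46 and NK1.1, were high in all groups, with both lowest in 14-day lung. The full list of 8 NK cell markers summed to 15622 CPM in 14-day lung and to 19458 to 23119 CPM elsewhere. Itga2 stood at 844 CPM in naive lung and 356 in 14-day lung, and Prf1 at 1380 and 790. Klrk1 alone of the list went the other way between these groups, from 946 to 985 CPM. The cause of the lower marker levels was not tested. Of the kept barcodes, 16 were shared by the naive and 6 h libraries, 11 by the naive and 14-day and 7 by the 6 h and 14-day libraries. RNA of red cells and of class II cells was highest in the 14-day lung. The 4 hemoglobin genes summed to 88.97 CPM there, from 0.112% of its cells, and to at most 0.362 CPM in the other 5 groups, and the class II chaperone Cd74 reached 28.3 CPM against at most 3.45 CPM elsewhere. The epithelial and tumor markers Epcam, Krt8, Krt18, Sftpc and Scgb1a1 summed to 0.453 to 1.99 CPM.

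MHC class I molecules carry peptides from proteins of the cell to its surface. A heavy chain pairs with beta-2 microglobulin (B2m), the proteasome cuts the peptides, the TAP transporter moves them into the endoplasmic reticulum, and tapasin and ERAP1 help to load and trim them. NK cells read class I on other cells through Ly49 and CD94/NKG2 receptors and spare cells that carry it, and they express class I themselves, which takes part in setting their own responsiveness. Interferons raise the whole pathway through IRF1 and NLRC5 among others, and NLRC5 acts at a conserved promoter module.

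Promoter stretches are shown here because several of the 10 genes share sequence there. Of that module only the X2-like and CCAAT letters described below were searched, not its other boxes. RefSeq promoter windows of GRCm38.p6, 250 bases before to 50 bases after the start, were on hand for 8 of the 10 genes, all but Tap2 and Nlrc5. Capitals mark 4 motifs, searched on both strands: an ISRE-like match (TTTCNNTTC or TTCNNTTTC, the letters of interferon-response elements), a kappaB-like match (letters of the kind NF-kB binds, searched as the 10 capitals that come first in H2-K1 or the 10 that come second in B2m), an X2-like match (TGACG, the part of the class I module that CREB and ATF factors bind) and a CCAAT box (CCAAT, bound by NF-Y). In the first 5 sequences below the gene reads from left to right.
B2m, chr2:122147538-122147648, plus strand: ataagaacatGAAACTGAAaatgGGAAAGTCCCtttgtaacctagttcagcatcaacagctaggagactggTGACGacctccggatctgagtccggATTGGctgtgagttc
H2-K1, chr17:34000349-34000468, minus strand: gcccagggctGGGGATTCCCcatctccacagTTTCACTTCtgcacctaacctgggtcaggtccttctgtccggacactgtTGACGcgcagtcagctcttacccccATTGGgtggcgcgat
H2-D1, chr17:35262913-35263055, plus strand: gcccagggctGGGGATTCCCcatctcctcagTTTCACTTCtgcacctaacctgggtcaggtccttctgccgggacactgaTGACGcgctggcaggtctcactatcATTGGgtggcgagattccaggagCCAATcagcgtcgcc
H2-Q7, chr17:35439012-35439153, plus strand: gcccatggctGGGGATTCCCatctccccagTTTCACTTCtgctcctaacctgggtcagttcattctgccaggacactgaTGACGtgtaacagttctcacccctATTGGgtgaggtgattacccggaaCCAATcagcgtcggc
H2-T23, chr17:36032739-36032834, minus strand: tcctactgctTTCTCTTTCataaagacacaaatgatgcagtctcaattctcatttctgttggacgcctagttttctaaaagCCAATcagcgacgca
Between the starts of Psmb9 and Tap1, chr17:34187331-34187555, plus strand: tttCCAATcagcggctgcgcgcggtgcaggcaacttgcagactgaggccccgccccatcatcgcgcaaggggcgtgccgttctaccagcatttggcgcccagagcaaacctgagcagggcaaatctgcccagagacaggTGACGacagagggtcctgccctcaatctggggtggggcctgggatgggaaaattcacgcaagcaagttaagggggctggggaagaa

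The promoters of H2-K1, H2-D1 and H2-Q7 carried the kappaB-like, ISRE-like, X2-like and CCAAT matches in that order. From the kappaB-like to the X2-like match, H2-K1 and H2-D1 were identical at 71 of 75 bases. B2m carried the same 4 kinds with the ISRE-like match ahead of the kappaB-like match, and the window of H2-T23 held an ISRE-like match and a CCAAT box. By the RefSeq starts, Tap1 and Psmb9 start back to back, with 225 bases between their starts, and share 1 X2-like match and 1 CCAAT box there. The gene spans given below are from GENCODE and begin farther upstream for Psmb9, H2-D1 and H2-T23. The stretches shown for these genes therefore lie within those spans. Psmb8 held none of the 4 and was the only one of the 8 with a GAS-like match (TTCNNNGAA). The kappaB-like letters occur in 0.262% of 32851 RefSeq promoter windows, the ISRE-like in 14.8%, the X2-like in 20.8%, the CCAAT box in 37.4% and the GAS-like in 8.30%. In the same order they were found in 4, 5, 6, 7 and 1 of the 8 windows. The X2-like match and the CCAAT box that Tap1 and Psmb9 share are counted for both windows. The kappaB-like letters are those of H2-K1 and B2m themselves, so these windows match by construction. H2-D1 and H2-Q7 resemble H2-K1, so the count of 4 is no measure of enrichment over all windows. A match is a description of letters, not a site shown to be bound.

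**Figure D1:**
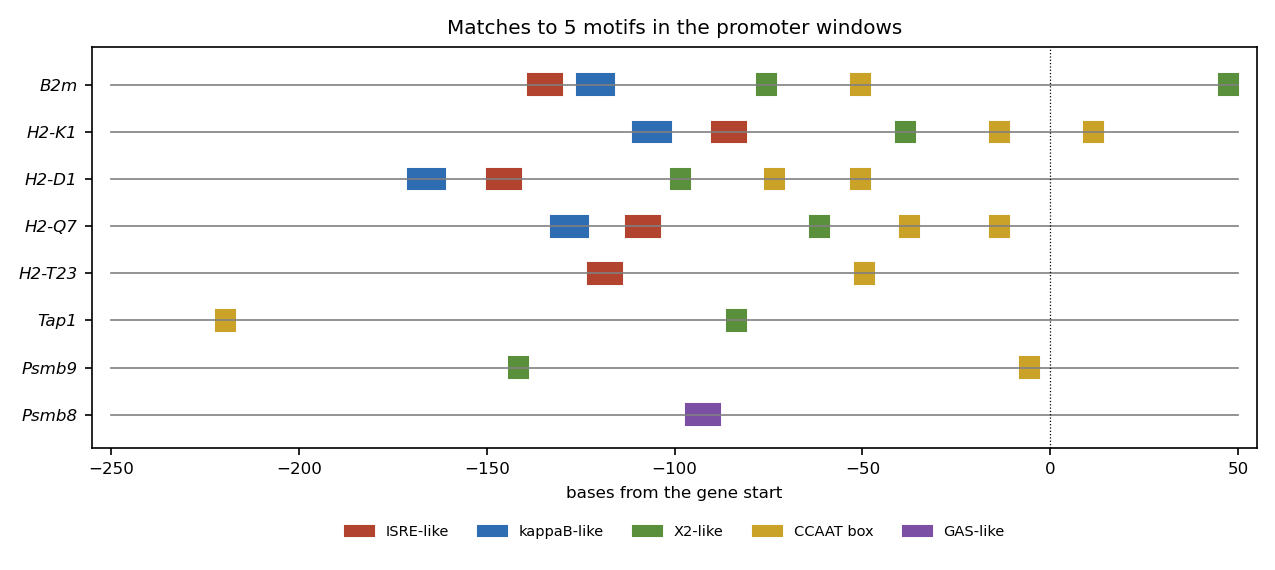
Positions of matches to 5 motifs in the promoter windows of 8 genes, in bases from the gene start (x axis), 1 line per gene. In H2-K1, H2-D1 and H2-Q7 the kappaB-like (blue), ISRE-like (red), X2-like (green) and CCAAT (yellow) matches follow each other in the same order, while Tap1 and Psmb9 hold X2-like and CCAAT matches and Psmb8 a GAS-like match.

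The naive lung was the lowest of the 6 groups for 9 of the 10 genes, and H2-Q7 was lowest in 14-day lung. The 6 h blood was the highest group for 7 genes (B2m, H2-K1, H2-Q7, Tap1, Tap2, Psmb9 and Nlrc5), 14-day blood for H2-D1 and Psmb8, and 14-day lung for H2-T23. These orders are of CPM without centring. The share of all genes with the same order is not given here, so the order cannot be read as particular to this set. The range over the 6 groups was small, from 0.13 log2 units for H2-D1 to 0.64 for Nlrc5. Together the 10 genes made up 0.783% of all UMIs in naive lung and 0.826% in naive blood, 0.905% and 0.94% at 6 h, and 0.863% and 0.878% at 14 days. UMIs count molecules by their 3′ ends and were not divided by length, so levels are set side by side between groups and not between genes.

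B2m, the light chain that all class I molecules need for transport to the surface (ENSMUSG00000060802, chr2:122147686-122153083, plus strand of GRCm38), had 1879 CPM in naive lung, 2290.1 in 6 h lung and 2301 in 14-day lung, and 1995 in naive blood, 2393 in 6 h blood and 2155 in 14-day blood. The interval in naive lung was 1861 to 1897 CPM, below those of all other groups. The 6 h and 14-day lungs, at 2275 to 2306 and 2283 to 2318 CPM, overlapped. A B2m UMI was found in 99.8% of 14-day lung cells, the lowest share of the 6 groups. When every cell was reduced at random to 3000 UMIs, the median number of B2m UMIs was 5 in naive lung, 6 in naive blood and both 14-day groups, and 7 in both 6 h groups.

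H2-K1 (ENSMUSG00000061232, chr17:33996017-34000347, minus strand) and H2-D1 (ENSMUSG00000073411, chr17:35262730-35267499, plus strand) encode the classical heavy chains K and D. H2-K1 had 2249 CPM in naive lung, 2609.8 in 6 h lung and 2375 in 14-day lung, and 2329.6 in naive blood, 2648 in 6 h blood and 2412 in 14-day blood. It was highest at 6 h in both tissues, where the intervals of lung (2593 to 2627) and blood (2626 to 2669) met only at their edges, and its 14-day levels stood between naive and 6 h. H2-D1 had 2082 CPM in naive lung, 2233 in 6 h lung and 2119.5 in 14-day lung, and 2121 in naive blood, 2271 in 6 h blood and 2273 in 14-day blood. It was the least variable of the 10 genes, and its 6 h and 14-day blood levels overlapped (2252 to 2291 and 2250.4 to 2296 CPM).

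H2-Q7 (ENSMUSG00000060550, chr17:35439155-35443773, plus strand) encodes Qa-2, a nonclassical heavy chain with a lipid anchor. It had 733 CPM in naive lung, 859 in 6 h lung and 706 in 14-day lung, and 776 in naive blood, 897 in 6 h blood and 757 in 14-day blood, so in both tissues the 6 h library was highest and the 14-day library lowest in CPM. H2-T23 (ENSMUSG00000067212, chr17:36029773-36032855, minus strand) encodes Qa-1, the nonclassical molecule that presents leader peptides of other class I chains to the CD94/NKG2A receptor. It had 208 CPM in naive lung, 242 in 6 h lung and 288 in 14-day lung, and 232 in naive blood, 244 in 6 h blood and 271 in 14-day blood. H2-T23 was the only gene of the 10 that was highest in 14-day lung, with an interval of 282 to 294 CPM above that of 14-day blood (264 to 279 CPM). Heavy chain genes are near-identical copies of each other, and reads that matched several genes were not counted, so the level of each single heavy chain is uncertain while its comparison between groups rests on the same reads.

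Tap1 (ENSMUSG00000037321, chr17:34187553-34197225, plus strand) and Tap2 (ENSMUSG00000024339, chr17:34203527-34216321, plus strand) encode the TAP transporter. Tap1 had 58.5 CPM in naive lung, 67.3 in 6 h lung and 76.5 in 14-day lung, and 69.2 in naive blood, 77.9 in 6 h blood and 76.3 in 14-day blood, with 6 h blood and both 14-day groups overlapping and naive lung below all others. Tap2 had 76.9 CPM in naive lung, 82.8 in 6 h lung and 84.3 in 14-day lung, and 93.3 in naive blood, 100.1 in 6 h blood and 98.7 in 14-day blood, with each blood level above each lung level. A Tap1 UMI was found in 29.1% of cells of naive lung and 43.4% of 14-day blood, and in 15.5% (95% exact binomial interval 14.3% to 16.7%) and 20.9% (19.2% to 22.8%) at 3000 UMIs per cell. Nearly all nucleated cells make these genes, so the sort holds no cell type that should lack them and gives no background share. The upper value estimated for free RNA was 3.96% of the counts of the naive, 2.66% of the 6 h and 0.189% of the 14-day library. The naive and 6 h values rest on 14 and 19 UMIs of Ms4a1 in kept barcodes. The 14-day value rests on 1 UMI of S100a9, so it is no firm bound and cannot be set against the other libraries.

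Psmb8 (ENSMUSG00000024338, chr17:34197721-34201454, plus strand) and Psmb9 (ENSMUSG00000096727, chr17:34181987-34187764, minus strand) encode the immunoproteasome subunits LMP7 and LMP2. Psmb8 had 333 CPM in naive lung, 415 in 6 h lung and 421 in 14-day lung, and 370.3 in naive blood, 449 in 6 h blood and 456 in 14-day blood. Psmb9 had 113 CPM in naive lung, 139 in 6 h lung and 150.1 in 14-day lung, and 138 in naive blood, 166 in 6 h blood and 159 in 14-day blood. Both were lowest in naive lung, and in both the blood level was above the lung level at each time. Psmb9 was also the gene whose pattern over the 6 groups lay closest to the mean of the other 9 (Pearson r = 0.97 over 6 groups, which are 3 libraries), while H2-Q7 (0.48) and H2-T23 (0.55) lay farthest from it.

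Nlrc5 (ENSMUSG00000074151, chr8:94434356-94527272, plus strand), the transactivator of class I genes, had 99.9 CPM in naive lung, 113 in 6 h lung and 109 in 14-day lung, and 132 in naive blood, 156 in 6 h blood and 123 in 14-day blood. It had the widest range of the 10, with all 3 blood groups above all 3 lung groups. Its gap between the tissues was the largest of the 10 in naive mice and at 6 h. At 14 days that of Tap2 was larger (log2 ratio of CPM, lung over blood, -0.23 against -0.17). At 3000 UMIs per cell, Nlrc5 was seen in 23.1% of cells from naive lung (21.7% to 24.5%), 29.7% from naive blood (28.3% to 31.1%) and 33.2% from 6 h blood (31.4% to 34.97%).

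**Figure D2:**
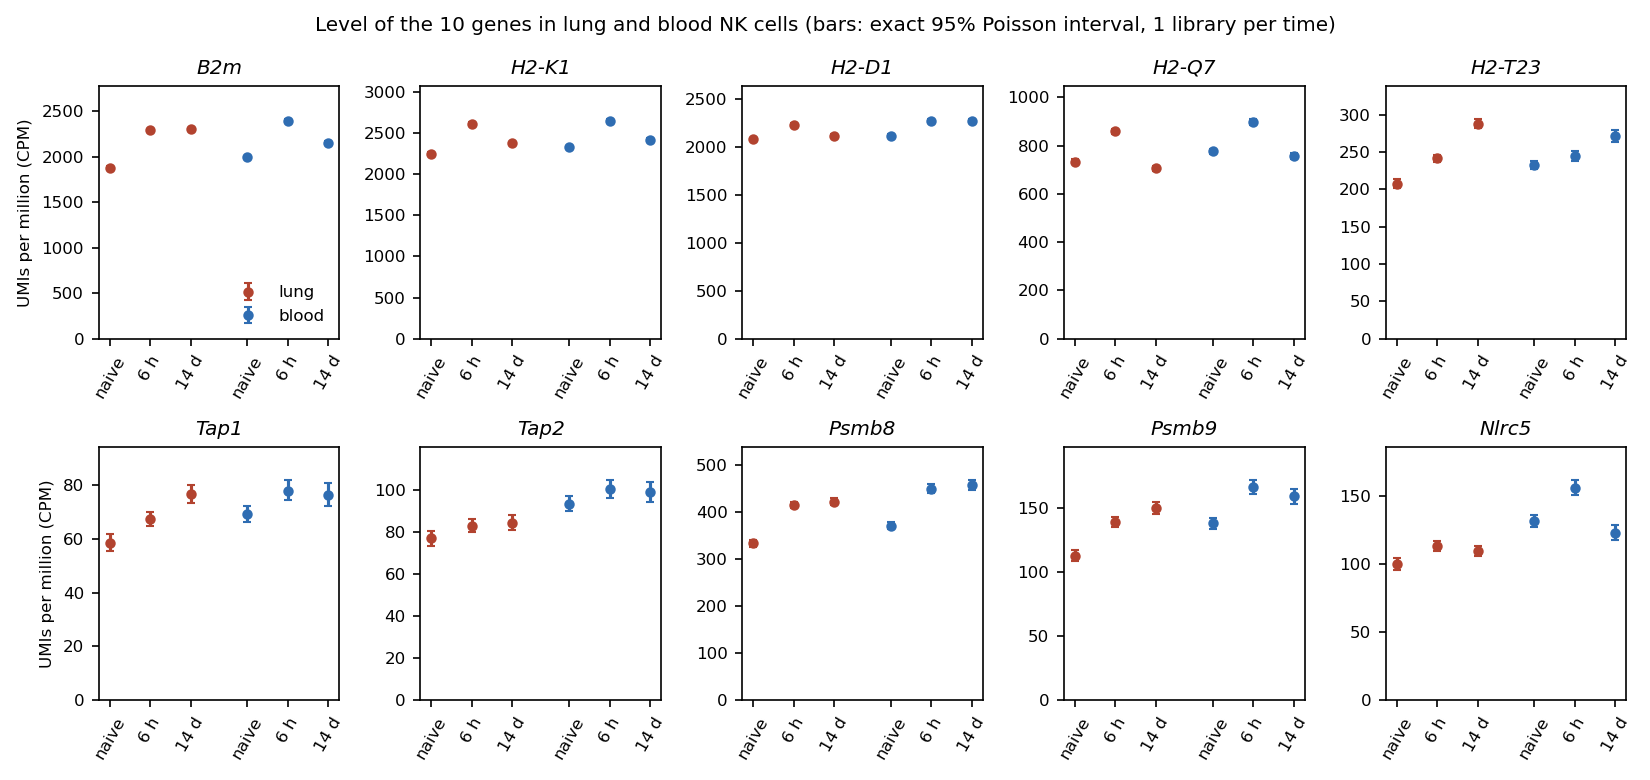
Level of each of the 10 genes in CPM (y axis from 0) in lung (red) and blood (blue) NK cells of naive mice and 6 h and 14 days after tumor cell injection. Points are sums over all cells of a group and bars are exact 95% Poisson intervals. The naive lung is the lowest point in 9 of the 10 panels, H2-T23 is highest in 14-day lung at 288 CPM, and Nlrc5 is higher in blood than in lung at each time.

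For comparisons between groups, log2 ratios of CPM were centred on the median log2 ratio of all genes that reached 50 CPM in either group, because very abundant genes can move the totals. Whether they did so here was not tested. These medians were -0.092 in lung and -0.074 in blood at 6 h over naive, and -0.25 and -0.20 at 14 days over naive. A gene counted as past the fold at a centred log2 ratio of 0.5 in size. The comparisons of lung and of blood cells over time rest on the same 3 libraries, and those of 6 h and of 14 days share the naive library.

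At 6 h after tumor cells were injected, the whole set stood slightly above naive in both tissues. In lung the centred log2 ratios of the 10 genes ran from 0.19 to 0.41 with a median of 0.31, and in blood from 0.15 to 0.35 with a median of 0.27. None of the 10 was past the fold in lung or blood, where 0.926% and 0.512% of all genes were past it upward and 0% and 0.0256% downward. All 10 intervals lay above 0 in both tissues, as did those of 36.5% and 33.9% of all genes. Psmb8 had the largest ratio in lung at 0.41 (95% interval 0.37 to 0.45) and in blood at 0.35 (0.31 to 0.39). B2m stood at 0.38 in lung and 0.34 in blood, and H2-D1 and Tap2 were the smallest in lung at 0.19 and 0.20. The lung ratio was above the blood ratio for 9 of the 10 genes, and the difference was largest for H2-T23, at 0.16 (95% interval 0.089 to 0.23). The share of all genes with a lung ratio above the blood ratio is not given here, so this count cannot be read as particular to the set. The interval of this difference, from a normal approximation to the counting error, was above 0 for 4 of the 10 genes, beside 14% of all genes.

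The rest of the proteasome had ratios of similar size at 6 h. The 11 subunits of the 20S core that are shared by both kinds of proteasome had a median of 0.28 in lung and 0.26 in blood, and the constitutive catalytic subunits Psmb5, Psmb6 and Psmb7 had a median of 0.33 and 0.27. None of these 14 genes was past the fold. The genes past it at 6 h in lung among the lists of the pathway included the interferon regulatory factor gene Irf1 (71.4 to 97.96 CPM, centred log2 ratio 0.55), Tapbp for tapasin (0.53) and the proteasome activator genes Psme1 (0.53) and Psme2 (0.54). In blood Psme2 (0.54) was past it.

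At 14 days the set divided, and for most of the 10 genes the ratio over naive was larger in lung than in blood. The levels of lung and blood themselves stayed close. The median centred log2 ratio of the 10 genes, lung over blood, was -0.088 in naive mice and 0.0016 at 14 days. In lung, H2-T23 (208 to 288 CPM), Psmb9 (113 to 150.1), Tap1 (58.5 to 76.5), Psmb8 (333 to 421) and B2m (1879 to 2301) were past the fold over naive. Their centred log2 ratios were 0.72 (95% interval 0.67 to 0.78), 0.67 (0.60 to 0.74), 0.64 (0.54 to 0.74), 0.59 (0.55 to 0.63) and 0.55 (0.53 to 0.56). These were 5 of the 10 genes, beside 10.9% of all 3939 genes past the fold upward and 6.19% downward. All 10 intervals lay above 0, as did 40.8% of those of all genes. The 4 genes between were Tap2 (0.39), Nlrc5 (0.39), H2-K1 (0.33) and H2-D1 (0.28), and H2-Q7 had the smallest ratio (0.20).

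The count of 5 depends on the centring. On the scale of CPM as they are, the ratios of the 5 genes were 0.47, 0.41, 0.39, 0.34 and 0.29 in the same order, 0 of the 10 passed 0.5, and H2-Q7 turned to lower than naive in lung (-0.055) and in blood (-0.035). With mitochondrial and ribosomal protein genes left out of the totals and no centring, 4 of the 10 passed it.

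In blood at 14 days, Psmb8 alone reached the fold, at 0.50 (95% interval 0.46 to 0.54, 370.3 to 456 CPM), beside 5.25% of all 3902 genes past it upward and 0.743% downward. This call sits at the threshold and was lost under 6 of the settings tried. All 10 intervals lay above 0 on the centred scale, as did those of 40% of all genes. The other 9 ran from 0.10 for Nlrc5 to 0.43 for H2-T23. Nlrc5 was lower than naive blood on the CPM scale (132 to 123, log2 ratio -0.096).

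Set side by side, the lung ratio over naive exceeded the blood ratio with an interval above 0 for 7 of the 10 genes at 14 days, beside 30.1% of all genes. The differences were 0.30 (95% interval 0.16 to 0.44) for Tap1, 0.30 (95% interval 0.23 to 0.37) for H2-T23 and 0.28 (95% interval 0.17 to 0.39) for Nlrc5, and 0.26 (95% interval 0.16 to 0.36) for Psmb9. B2m differed by 0.23 (95% interval 0.21 to 0.26), and Psmb8 and H2-K1 by less than 0.1. For H2-D1, H2-Q7 and Tap2 the interval held 0, with H2-D1 at -0.021 (95% interval -0.046 to 0.0043). Tap1, its back-to-back neighbour Psmb9, the Qa-1 heavy chain and Nlrc5 thus had the larger differences, and the heavy chains H2-D1 and H2-Q7 the smallest.

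Several lists of markers of other cell types had their highest sums in 14-day lung. Which cells this RNA came from was not tested. The 7 class II genes summed to 88.6 CPM there against 18.6 to 36.96 in the other groups, the 4 endothelial markers to 85.9 against 49.6 to 69.9, and the 5 markers of type 1 innate lymphoid cells to 194 against 50.4 to 110.4. Of the sum for type 1 innate lymphoid cells, 131 CPM were Ltb. Tmem176a, Tmem176b and Il7r were also highest in 14-day lung, at 10.9, 14.8 and 32.4 CPM. Cxcr6 was at 4.72 CPM in 14-day lung and higher in 14-day blood, at 15.3. Of the endothelial sum, 82.5 CPM were Pecam1, while Cdh5 and Cldn5 were at 0 in the other groups and at 1.17 and 1.14 CPM in 14-day lung. The 8 B cell markers, of which Cd74, H2-Aa and H2-Ab1 are also in the class II list, summed to 107 CPM in 14-day lung against 37.4 to 54.4, with Ighm at 55.4 against 34.1 CPM in naive lung and Cd79a and Ms4a1 under 1 CPM in all groups. The 7 myeloid markers summed to 90.2 CPM in 14-day lung and 192 CPM in 14-day blood, against 90.1 and 122 in naive lung and blood. In blood Lyz2 was at 0.6, 44.9 and 89.3 CPM in naive, 6 h and 14-day cells, while S100a8 and S100a9 were at 9.41 and 13.3 in naive blood and at 0 in 14-day blood. The 6 T cell markers summed to 571 CPM in 14-day lung and 581 in 14-day blood, against 479 to 501 in the other groups. Most of this was Trbc1 and Trbc2, at 336 and 177 CPM in 14-day lung. Cd3e and Cd3d were at 1.66 and 6.31 CPM in naive lung and at 5.04 and 15.97 in 14-day lung. Cells that held a UMI of Cd74, H2-Aa, H2-Ab1, H2-Eb1, Cdh5, Cldn5 or a hemoglobin gene (3.83% of 14-day lung cells) were then left out. In the remaining cells 5 of the 10 genes were past the fold in lung and 1 in blood. The share of all genes past it in those cells is not given here. No cell was left out for RNA of Ltb, Ighm, Lyz2 or the other markers named above. In bulk sums like these, more cells of a state and more RNA per cell cannot be told apart.

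**Figure D3:**
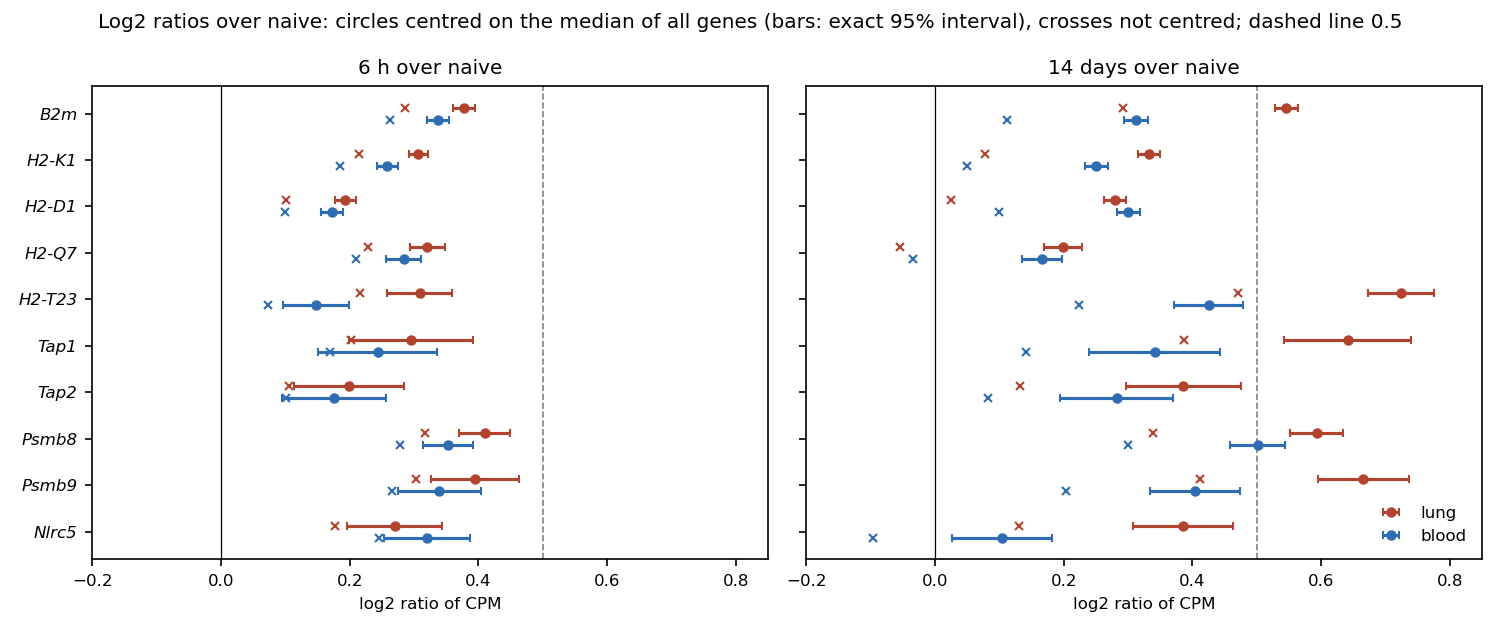
Log2 ratios of CPM over naive (x axis) at 6 h (left) and 14 days (right) in lung (red) and blood (blue). Circles are centred on the median of all genes, with exact 95% intervals as bars. Crosses are the same ratios without centring, and the dashed line marks 0.5. At 14 days the lung circles of H2-T23, Psmb9, Tap1, Psmb8 and B2m lie beyond the dashed line, and no cross does.

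The immunoproteasome can be read against its constitutive counterpart within the same cells, a ratio that no scaling changes. Such a ratio also moves with its denominator. At 14 days Psmb5 was at 123 CPM in lung and 151 in blood, Psmb6 at 118 and 145, and Psmb7 at 74.9 and 82.3. Psmb8 (421 and 456 CPM) and Psmb9 (150.1 and 159) were lower in lung than in blood as well, so a higher lung ratio is not a higher lung level. Psmb8 UMIs stood to Psmb5 UMIs as 2.58 to 1 in naive lung (95% interval 2.47 to 2.69), 2.74 at 6 h and 3.41 at 14 days (3.29 to 3.54). In blood the values were 2.58, 2.74 and 3.02. Psmb9 stood to Psmb6 as 0.956 to 1 in naive lung and 1.28 in 14-day lung, and its interval in 14-day blood (1.04 to 1.16) overlapped that of naive blood (1.01 to 1.11). Psmb10, the remaining immunoproteasome catalytic subunit, stood to Psmb7 as 1.77 in naive lung, 2.07 at 6 h and 2.13 at 14 days. In lung all 3 ratios at 14 days were above naive with intervals that did not overlap. In blood all 3 were also higher at 14 days in value, with Psmb9 to Psmb6 at 1.06 in naive and 1.10 in 14-day blood and Psmb10 to Psmb7 at 1.99 and 2.19. Only the intervals of Psmb8 to Psmb5 lay apart in blood. That of Psmb10 to Psmb7 at 14 days (2.06 to 2.34) overlapped that of naive blood (1.89 to 2.09). Overlap of intervals does not show that ratios are equal, and no interval of the change in a ratio was computed.

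The other lists of the pathway were read in the same way. In 14-day lung over naive, all 3 of the other class I heavy chain genes with enough counts were past the fold, H2-Q4 at 0.85, H2-Q6 at 0.56 and H2-T22 at 0.56, and the remaining 11 of that list were under 50 CPM. Of the 6 genes of the loading complex and peptide editing, Tapbp (0.66) and the tapasin relative Tapbpl (0.55) were past the fold, Tapbpl with 41.3 CPM in naive lung and 50.6 in 14-day lung having reached the minimum through the higher group alone. The peptide trimmer Erap1 was at 0.074, and the general chaperones Calr (-0.15), Canx (-0.12) and Pdia3 (-0.092) lay just below the median gene. Psme1 (0.73) was past the fold among the 4 genes of the immunoproteasome and PA28 list, with Psmb10 at 0.43, Psme2 at 0.40 and Pomp at 0.49. Among the other heavy chains in blood, H2-Q4 was past the fold (0.63). The core 20S subunits in lung (median 0.36) and Psmb5, Psmb6 and Psmb7 (median 0.19) had 0 of 14 past it, against a median of 0.47 for the 10 genes.

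Among 10 genes of class I transcription, Irf1 (71.4 to 91.99 CPM, 0.62) was past the fold in 14-day lung. In 14-day blood its centred ratio was 0.28. Of the 12 interferon-stimulated genes, Zbp1 (51.2 to 64.7 CPM, 0.59) reached 50 CPM in both lung groups. Isg15 (22.7 to 55.2 CPM) reached it through 14-day lung alone, so that its place past the fold follows from the minimum, and the other 10 did not reach it in lung. The 12 summed to 396 CPM in 14-day lung and to 186 to 214 CPM in the other 5 groups. Among 8 genes induced by interferon gamma, Gbp7 (87.6 to 123 CPM, 0.75) was past the fold in lung and stood at 0.042 in blood. Socs1 was at 41.5 CPM in naive and 69.95 in 14-day lung, reaching the minimum at 14 days alone, and at 29.6 and 49.6 CPM in blood, under it. The 10 genes of the Ly49 and CD94/NKG2 receptors and Klrk1 had 0 past the fold in lung and blood at 14 days. Their ratios ran from -0.25 to 0.32 in lung (median 0.085). In blood they ran from -0.078 to 0.34 (median 0.0018).

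**Figure D4:**
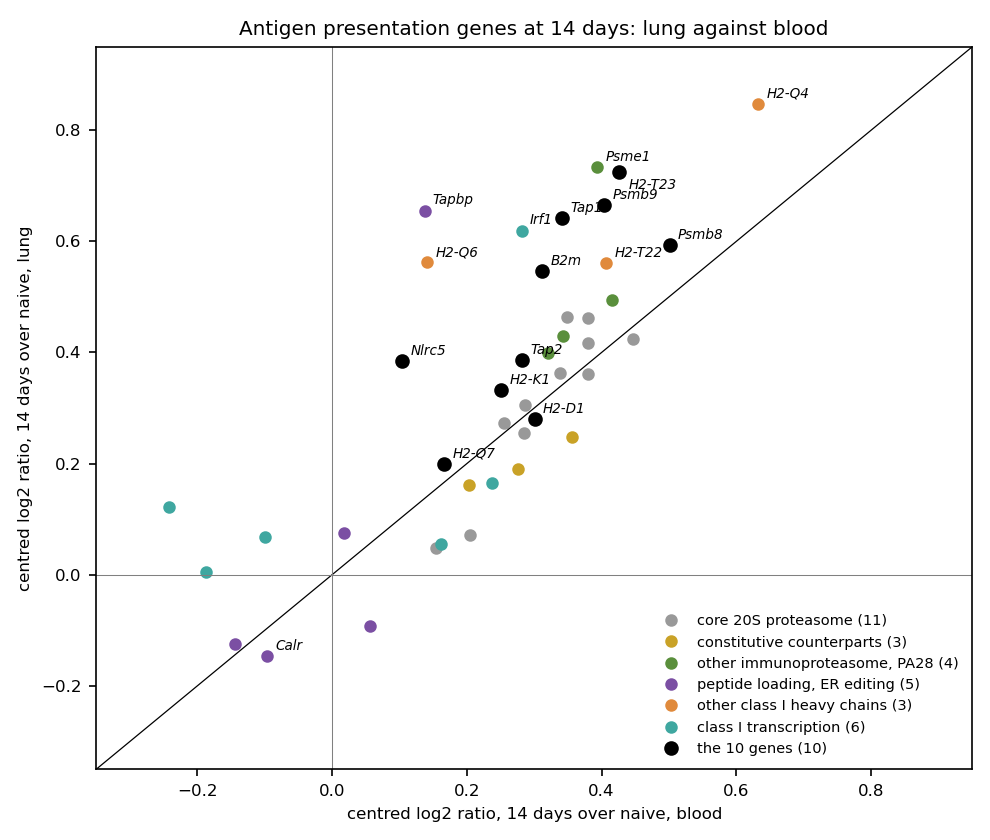
Centred log2 ratio of 14 days over naive in lung (y axis) against blood (x axis) for the 10 genes (black) and 6 lists of the pathway, limited to genes with at least 50 CPM in both comparisons. The line marks equal ratios. Tap1, H2-T23, Psmb9, B2m and Nlrc5 lie above it, H2-D1 and H2-Q7 close to it, and Tapbp and H2-Q6 lie farthest to its upper left.

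Between the tissues, blood was at or above lung in naive mice for most of the machinery. On the centred scale Nlrc5 was lowest in lung relative to blood at -0.33 (95% interval -0.40 to -0.25), followed by Psmb9 (-0.23), Tap2 (-0.21) and Tap1 (-0.17). B2m, H2-K1, H2-D1 and H2-Q7 lay between -0.017 and 0.042. None of the 10 was past the fold in either direction in naive mice, at 6 h or at 14 days, where 10.2%, 9.63% and 8.84% of all genes were past it upward and 2.41%, 1.9% and 3.23% downward. The 6 h values were close to the naive ones, with Nlrc5 at -0.39 and Tap1 at -0.14. At 14 days Nlrc5 was at -0.074 (-0.16 to 0.0065), Tap1 at 0.098 (-0.0019 to 0.20), B2m at 0.19 (0.17 to 0.21) and H2-T23 at 0.18 (0.13 to 0.23). Tap2 kept a blood level above the lung level at all 3 times (-0.21, -0.20 and -0.13).

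Lung cells had been released with enzymes and blood cells had not. Of 10 immediate early and stress genes, 9 were higher in lung at all 3 times, among them Fos (80.3 CPM in naive lung, 12.8 in naive blood) and Junb (1058 and 211). Egr1 was lower in lung than in blood in naive mice (23.8 and 48.1 CPM) and at 6 h (20.7 and 33.2). The heat shock gene Hspa1b reached 41.9 CPM in 14-day lung against at most 4.06 elsewhere. The 10 immediate early and stress genes summed to 1687 to 1774 CPM in the lung groups and 483 to 534 in the blood groups, and each of the 10 had at least 3 counts in every group. Their part in the tissue differences of the class I genes was not tested.

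Cells were next divided within each group by UMIs of genes outside the set. Cells with 3 or more UMIs of the 12 interferon-stimulated genes after thinning made up 9.99% (95% binomial interval 9.02% to 11.02%) of the 14-day lung, or 357 cells, and 2.99% to 4.93% of the other groups. Against cells with 0 such UMIs, all 10 genes were higher in all 6 groups, centred or not. The centred interval lay above 0 in 3 of the 6 groups for Tap2, in 4 for Nlrc5, and in 5 or 6 for each other gene. The share of all genes that were higher in this way is not given here. In 14-day lung the cells with 3 or more held a median of 7427 UMIs and those with 0 a median of 7029. In 14-day lung, H2-T23 stood at 504 against 251 CPM (centred log2 ratio 1.08, 95% interval 0.99 to 1.16). Tap1 stood at 135 against 65.4 CPM (1.11, 0.94 to 1.28) and Nlrc5 at 190.4 against 97.8 CPM (1.03, 0.89 to 1.17).

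These 3 genes, with Psmb9 (0.69) and Psmb8 (0.63), were past the fold, 5 of 10 beside 6.66% of all genes. The classical chains H2-K1 (0.27) and H2-D1 (0.21) and H2-Q7 (0.25) had the smallest ratios there. The median of the 10 was 0.56 in 14-day lung, 0.39 in 6 h lung, 0.31 in naive lung, and 0.31, 0.24 and 0.22 in naive, 6 h and 14-day blood. Between 1 and 2 of the 10 were past the fold in those 5 groups, beside 2.92% of all genes in naive lung, 2.41% in naive blood, 2.36% in 6 h lung, 2.87% in 6 h blood and 3.4% in 14-day blood. With the cells left out that held those 6 class II and endothelial genes or hemoglobin, the median in 14-day lung was 0.56.

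**Figure D5:**
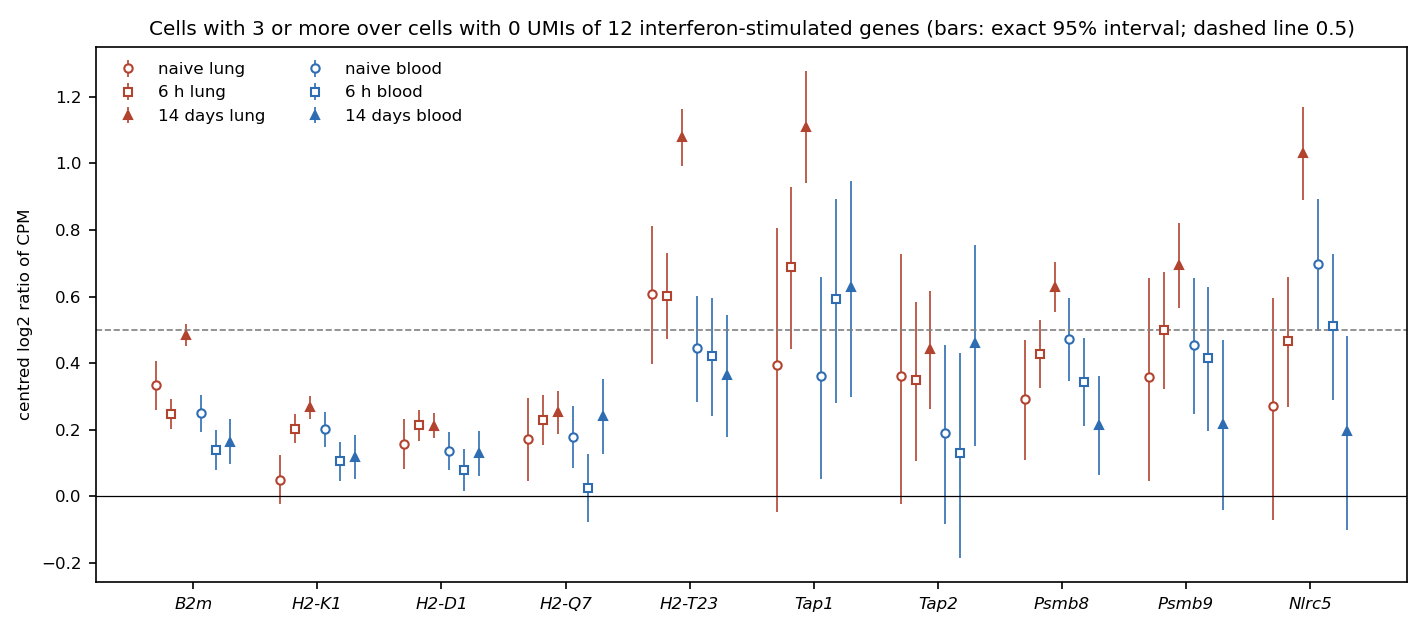
Centred log2 ratio of CPM (y axis) in cells with 3 or more over cells with 0 UMIs of 12 interferon-stimulated genes after thinning to 3000 UMIs, within each of the 6 groups, for the 10 genes (x axis). Bars are exact 95% intervals and the dashed line marks 0.5. Filled red triangles, the 14-day lung, reach 1.11 for Tap1, 1.08 for H2-T23 and 1.03 for Nlrc5, and every point lies above 0.

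The difference between 14 days and naive was also seen in the cells with 0 interferon-list UMIs after thinning, some of which hold such UMIs at full depth. Among those lung cells (2081 at 14 days, 2229 naive) the median centred log2 ratio of the 10 genes was 0.45, and H2-T23 (0.59), Psmb9 (0.59), Psmb8 (0.56) and B2m (0.50) were past the fold, 4 of 10 beside 10.8% of all genes. Tap1 was below the fold there at 0.47, and Nlrc5 was at 0.24. In the cells with 3 or more such UMIs, of which naive lung had 110, the median was 0.75 and Tap1 reached 1.17, with 7 of 10 genes past the fold beside 18.7% of all genes. In the blood cells with 0 such UMIs 1 gene was past it, beside 5.94%. The lung over blood ratio of H2-T23 at 14 days was 0.018 among the cells with 0 interferon-list UMIs after thinning, against 0.18 in all cells, and that of B2m was 0.14 against 0.19.

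Maturation of mouse NK cells runs from CD27 single-positive through double-positive to CD11b (Itgam) single-positive cells, and ends with KLRG1 and CX3CR1. A missing UMI in a cell can be a missed molecule, so these divisions are ranges of counts and not cell types. Cells with Cd27 and no Itgam UMI made up 6.53% (95% binomial interval 5.75% to 7.38%) of naive lung and 13.5% (95% binomial interval 12.4% to 14.7%) of 14-day lung, and held more UMIs per cell (median 9101 against 6743 for Itgam without Cd27 in 14-day lung). Psmb9 and H2-Q7 had the largest median ratios of the 10 in this division (0.41 and 0.39), and the interval of Psmb9 lay above 0 in 5 of the 6 groups. Cells with neither UMI had H2-Q7 close to that of Cd27 cells without Itgam in naive blood (871 and 874 CPM) and 14-day lung (755 and 756). In naive lung they stood between the single-positive ranges, at 772 CPM. In Cd27 cells without Itgam against Itgam cells without Cd27, H2-Q7 stood at 875 against 690.2 CPM in naive lung and 1025 against 826 CPM in 6 h blood. Its centred log2 ratios were 0.32 to 0.45 over the 6 groups, with every interval above 0. Intervals above 0 were held by 19.4%, 26% and 30.5% of all genes in naive, 6 h and 14-day lung and by 21.2%, 22.3% and 19.6% in blood. B2m, H2-K1, H2-D1 and Psmb8 also had all 6 intervals above 0, with ratios of at most 0.43, and without centring H2-D1 was higher in 4 of the 6 groups. Nlrc5 was near 0 (median of the 6 groups 0.020). Of the 60 ratios 1 was past the fold, Psmb9 in 14-day lung (0.50), beside 10.3% of all genes there, 5.01% and 6.32% in naive and 6 h lung, and 4.11%, 6.52% and 5.94% in naive, 6 h and 14-day blood.

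Some of the 10 genes were past the fold at 14 days in lung within each of these ranges. Over naive lung, 5 of the 10 genes were past the fold in cells with Cd27 and no Itgam (median 0.56, beside 17.1% of all genes), 3 in cells with both (0.40, beside 10.3%) and 2 in cells with Itgam and no Cd27 (0.44, beside 8.71%).

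At the other end, cells with UMIs of both Klrg1 and Cx3cr1 had less H2-Q7 than other cells of their group in all 6 groups, with centred log2 ratios of -0.37 to -0.12. The difference was smallest in 14-day lung (-0.12) and naive blood and lung stood at -0.21 and -0.25. H2-K1 had the same sign in all 6 groups (-0.17 to -0.024), and the other 8 genes had both signs. None of the 10 was past the fold downward in this division, beside 1.51%, 1.66% and 5.06% of all genes in naive, 6 h and 14-day lung and 1.31%, 1.99% and 1.18% in blood.

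Cells with a UMI of Itga1 or Pmepa1, genes of the tissue-retained and TGF-beta-responsive state, made up 48.5% (95% binomial interval 46.9% to 50.2%) of 14-day lung and 14.5% (95% binomial interval 13.4% to 15.7%) of naive lung. In 14-day lung they had more B2m (0.19, 95% interval 0.16 to 0.21) and less H2-D1 (-0.085, -0.11 to -0.062) than the other cells of the group, and the median of the 10 was 0.090. Tap1 stood at 81.6 against 70.7 CPM and Psmb9 at 159 against 140, while H2-Q7 was lower, at 683 against 732. None of the 10 was past the fold upward in 14-day lung, beside 6.34% of all genes. The median was 0.18 in 14-day blood and lay between -0.027 and 0.055 in the naive and 6 h groups. In lung cells with neither, 3 of the 10 genes were past the fold at 14 days over naive, beside 7.84% of all genes, and the median of the 10 was 0.41.

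Finally, genes with a pattern over the 6 groups like the mean of the 10 were sought among the 1870 genes outside the set with a mean of at least 50 CPM and a range of at least 0.5 log2 units. The 10 closest were Limd2 (Pearson r = 0.99), Plaat3 (0.98), C1qbp (0.98), Nop10 (0.97), Mrpl12 (0.97), Mrps16 (0.97), Pop5 (0.95), Nhp2 (0.95), Npm3 (0.95) and Rex1bd (0.95). Like 9 of the 10 genes they were lowest in naive lung and, but for Rex1bd, they were highest in 6 h blood, as for Limd2 with 171 and 247 CPM. The mean they were picked to follow has this order, so it is no separate result. Most of the 10 genes had a range below 0.5 log2 units, so genes as flat as these were not searched. Nop10 and Nhp2 encode parts of the H/ACA small nucleolar RNA particles, and Mrpl12 and Mrps16 proteins of the mitochondrial ribosome. The 6 points are 3 libraries with both tissues in each and share their depth, so the correlations describe these libraries.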

How the data were processed

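NK cells sorted from lung and blood were sequenced as 3 droplet libraries (10x Genomics 3′ v3.1), 1 for naive mice and 1 for each time after injection. The authors deposited raw UMI counts per gene and hashtag for all barcodes, aligned and counted with Cell Ranger against GRCm38.p6 with GENCODE M23 per the labels, without normalization. Whether intronic reads were counted is not given in the sources used here, and reads matching several genes are left out by this counter.

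Barcodes with 800 to 5000 genes and at most 6% mitochondrial counts were kept, and a tissue was assigned at 90% or more of the hashtag counts, which left out 342, 158 and 141 barcodes with both tags or neither. Doublets within a tissue stayed in. Counts were summed per group and scaled to 1000000 (CPM). Log2 ratios have exact conditional 95% intervals, shares exact binomial ones. A gene under 3 counts was set to 3. No test was made, since each condition is 1 library. An upper value for free RNA was estimated from markers with at least 40 counts in barcodes of at most 100 counts, a minimum set after the data were seen. Interferon groups of cells were set after thinning each cell to 3000 UMIs, which left out 6 to 86 cells per group.

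The genes and lists were chosen with earlier results of these data known, and 1 gene of the lists is not reported here. Named are all 10 genes, genes of the pathway lists past the fold over naive, and the 10 genes closest in pattern. Other list genes, including all markers of other cells and of stress, were picked after their values were seen. Counts for 14 days over naive in lung (3674 genes, 200 changed) were simulated from the Poisson model that the intervals assume. There 94.9% of intervals held the true ratio. A share near 95% follows from that model, so it checks the calculation and not the spread between cells, mice or libraries. Gene positions are from GENCODE M21, promoters from RefSeq. Python 3.11.15, numpy 2.4.6, scipy 1.17.1 and pandas 2.3.3 were used. Alternatives changed the filter on cells, hashtags, thinning, the deepest cells, the centring, the totals, free RNA, cell weights, the gene minimum and the fold.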

Additional observations from a re-analysis of the deposited data

Results flagged for a closer look

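The tissue difference of H2-T23, the Qa-1 gene, did not keep its sign over the 3 libraries. On the centred log2 scale lung over blood was -0.091 (95% interval -0.14 to -0.038) in naive mice, 0.054 (0.0047 to 0.10) at 6 h and 0.18 (0.13 to 0.23) at 14 days, so the naive interval lay below 0 and the other two above it. The difference between the libraries was not tested, since there is 1 library per condition. Without centring the 6 h value was -0.018, below 0, while the naive (-0.16) and 14-day (0.086) values kept their signs. Cells with 0 UMIs of the 12 interferon-stimulated genes after thinning to 3000 UMIs gave -0.097, 0.050 and 0.018 in the same order, and leaving out cells with a UMI of Cd74, H2-Aa, H2-Ab1, H2-Eb1, Cdh5, Cldn5 or a hemoglobin gene gave -0.087, 0.061 and 0.18.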

How the results depend on the processing

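The scaling and the threshold moved the counts of genes past the fold. Without centring, the count at 14 days over naive was 0 in lung and 0 in blood, against 5 and 1. The call of Psmb8 in 14-day blood was lost (0 of 10) also with 1000 to 4000 genes and at most 5% mitochondrial counts, without the 5% of cells with the most UMIs, without centring and with mitochondrial and ribosomal protein genes out of the totals, with each cell weighted equally, and with all genes of at least 10 CPM. At a log2 ratio of 0.3 in place of 0.5, the counts of higher genes were 6 in lung and 4 in blood at 6 h, 8 in lung and 6 in blood at 14 days, and 1 gene (Nlrc5) was lower in lung than blood in naive mice and 1 (Nlrc5) at 6 h. The share of all genes past 0.3 is not given here, so these counts cannot be read as particular to the set. Under the other settings each count stayed within 1.5 times, in 14-day lung 4 or 5. Of 70 single ratios, 58 kept their sign without centring, 61 with the smaller totals, and 66 to 70 under each remaining setting, where the largest move was 0.20. The median over cells with interferon-list UMIs in 14-day lung lay between 0.49 and 0.66. Leaving out cells with UMIs of the class II, endothelial and hemoglobin genes named above (up to 3.83% of a group) and restricting to cells with 0 interferon-list UMIs after thinning were chosen after the data were seen. No paired analysis was possible because each condition is 1 library. No replicate could be left out for the same reason.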
